A study of Mus musculus with 2 samples.

Results

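Retinal ganglion cells of mouse retinas injected with lipopolysaccharide (LPS) were picked from single-cell RNA libraries by their transcripts. A cell was kept with at least 500 genes, under 25% mitochondrial UMIs and at least 5000 UMIs (unique molecular identifiers, each counting 1 captured RNA molecule). It had to hold at least 2 UMIs of Slc17a6, at most 2 UMIs of Slc6a9, and at least 1 UMI of 5 or more of the 10 genes Rbpms, Nefl, Nefm, Pou4f1, Pou4f2, Pou4f3, Sncg, Thy1, Isl2 and Nrn1. This gave 92 ganglion cells of 12936 cells kept, 32 in the control library and 60 in the knockout library.

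The control group was Atg5fl/fl, with a floxed Atg5 allele and no Cre, and the knockout group carried the same allele with GLAST-CreER, a Cre that 4-hydroxy-tamoxifen switches on in Müller glia, so ganglion cells were not the cells targeted. Both groups received LPS at 0.5 µg per eye into the vitreous, and the labels list 4-hydroxy-tamoxifen for the knockout group only, so that Cre, drug and genotype cannot be told apart. Each group was 1 library from 6 pooled retinas, so no difference between the groups has a replicate check, no test was made, and every interval covers counting error only. The sources used here do not give the animals' sexes and ages or the delay from injection to harvest. There were no uninjected retinas among the samples, so no value below measures the response to LPS itself.

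Ganglion cells are the output neurons of the retina. They collect signals from bipolar and amacrine cells, release glutamate, and send their axons through the optic nerve to the brain. They fall into many types with their own transcription factors, and after axon damage they switch on injury genes such as Atf3 and Jun. Interferons act through receptors that signal by STAT proteins, which bind short elements in the promoters of antiviral and antigen presentation genes.

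The promoters of 4 genes are shown because their genes carried the main difference between the libraries: the pair of highest level in the knockout ganglion cells from each of the 2 interferon gene lists. They come from the RefSeq promoter table (GRCm38.p6, 250 bases before to 50 after the first listed start, plus strand, 5′ to 3′). Capitals mark GAAA, any 2 bases and GAAA again, on either strand, so that the other strand reads TTTC, any 2 bases and TTTC. This is a short form of the interferon-stimulated response element.
Ifit3, chr19:34583279-34583578: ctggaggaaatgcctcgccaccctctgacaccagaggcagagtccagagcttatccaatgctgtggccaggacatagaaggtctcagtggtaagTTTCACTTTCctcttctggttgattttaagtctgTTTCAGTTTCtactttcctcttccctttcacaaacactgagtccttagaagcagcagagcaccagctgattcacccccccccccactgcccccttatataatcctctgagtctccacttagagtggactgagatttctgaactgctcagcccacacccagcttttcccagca
Ifit1, chr19:34640639-34640938: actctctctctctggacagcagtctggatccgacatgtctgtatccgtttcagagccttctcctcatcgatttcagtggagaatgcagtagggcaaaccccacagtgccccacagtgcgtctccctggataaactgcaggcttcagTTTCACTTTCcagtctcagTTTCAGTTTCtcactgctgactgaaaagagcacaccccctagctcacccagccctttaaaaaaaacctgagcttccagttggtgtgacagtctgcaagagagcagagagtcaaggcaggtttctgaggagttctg
H2-D1, chr17:35262844-35263143: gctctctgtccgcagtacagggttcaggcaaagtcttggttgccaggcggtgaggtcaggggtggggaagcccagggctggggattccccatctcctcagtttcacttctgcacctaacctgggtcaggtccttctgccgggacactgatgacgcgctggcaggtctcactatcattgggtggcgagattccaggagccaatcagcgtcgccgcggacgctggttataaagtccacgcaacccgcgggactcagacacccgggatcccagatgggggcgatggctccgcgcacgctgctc
B2m, chr2:122147437-122147736: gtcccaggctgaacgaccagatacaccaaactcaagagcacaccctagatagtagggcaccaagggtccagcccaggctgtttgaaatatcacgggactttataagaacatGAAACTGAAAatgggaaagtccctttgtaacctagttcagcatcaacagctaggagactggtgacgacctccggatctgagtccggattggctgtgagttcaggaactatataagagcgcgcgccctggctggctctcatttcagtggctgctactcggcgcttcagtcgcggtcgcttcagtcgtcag

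The Ifit3 and Ifit1 promoters each held 2 such matches, the first starting 156 and 104 bases before the start. B2m held 1 match, starting 139 bases before the start, and H2-D1 held no match to this exact pattern in this window. Looser forms of the element were not searched. Of 27025 genes in the promoter table, 943 (3.49%) had a match. Promoters were found for 26 genes of the type I interferon list, and 14 of them (53.8%) had one. Of 28 promoters of the interferon gamma and antigen presentation list, 13 (46.4%) had one. A match is a description of the sequence and no evidence that a factor bound there.

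The median depth of the ganglion cells was similar in both libraries, but the control library had more shallow cells. A control ganglion cell held a median of 38414 UMIs (5924 to 99392) and a knockout one 41090.5 (8027 to 161637), against 16737 and 15651 in GABAergic amacrine cells chosen from the same libraries. The lower quartile was 14757 UMIs in control and 32163 in knockout ganglion cells, and 5 of 32 against 2 of 60 cells had under 10000 UMIs. Counts of cells with a UMI below depend on this depth, while CPM is relative to it. In all, 1189547 control and 2645592 knockout UMIs lay behind the ganglion cell values. Mitochondrial UMIs had medians of 4.05% and 4.33%, and 9 of 32 control cells were at 10% or more against 6 of 60 knockout cells. The 2 libraries shared 15 barcodes, and 0 of them were ganglion cells.

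The marker genes fitted the label, and since the rule used most of them they are a description. Slc17a6 encodes the vesicular glutamate transporter of ganglion cells. Its level ran from 200.1 to 944 CPM per control cell (median 512; CPM is UMIs per 1000000 UMIs of the cell or group) and from 51.2 to 1128 per knockout cell (median 481). Nefl, the light neurofilament chain of large axons, had 2349 CPM in control and 2155 in knockout cells, 83.6 and 70.8 times its level in the other cells of at least 5000 UMIs. Sncg, gamma-synuclein, had 1504 and 1570 CPM, 149 and 203 times the other cells. Rbpms, an RNA-binding protein used as a pan-ganglion marker, had 697 and 533 CPM, but only 7.92 and 7.93 times the other cells.

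The members just inside and just outside the thresholds were few. With every other condition met, 2 control cells and 1 knockout cell had 1 UMI of Slc17a6 and fell outside, and 1 of each had 2 and fell inside. No control cell and 2 knockout cells had 4 of the 10 markers and fell outside, and 2 and 1 cells had 5. The median cell had 8 of the 10 markers in control and 9 in knockout cells.

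Among genes outside the rule, those with the highest level over all other deep cells in both libraries included Irx4 and Irx2, homeobox factors, and Adcyap1, the neuropeptide PACAP. Irx4 had 54.6 CPM in control and 54.1 in knockout ganglion cells. Fxyd7, a regulator of the sodium pump, had 304.3 and 347 CPM, 53.6 and 54.6 times the other cells. Lgi1, a secreted synaptic protein, had 48.4 and 61.5 times their level. Of the 6466 genes with at least 100 UMIs in ganglion cells, 500 (7.73%) were at least 2-fold higher than in GABAergic amacrine cells of both libraries, and 195 (3.02%) as much lower. Among those higher were 15 of 31 genes of neurofilaments and axonal cytoskeleton and 12 of 29 voltage-gated channel genes. The rule chose the cells by this contrast, so these counts describe the cells and are read no further.

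Ganglion cells made up 0.387% (exact binomial 95% interval 0.265 to 0.546) of kept control cells and 1.29% (0.984 to 1.65) of kept knockout cells. Against other inner neurons the numbers were closer. There were 7.53 ganglion cells per 100 bipolar cells in control and 7.62 in knockout cells, a ratio of 1.01 (0.649 to 1.61). Per 100 GABAergic amacrine cells there were 13.2 and 15.3, a ratio of 1.16 (0.743 to 1.84). Among cells of at least 5000 UMIs the shares were 1.69% and 2.31%. The share among all cells thus differed 3.33-fold (2.13 to 5.28), while the intervals of these 2 ratios to inner neurons spanned 1.

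Atg5, the autophagy gene deleted in Müller glia, had 27 UMIs in 14 of 32 control ganglion cells (22.7 CPM, 15 to 33) and 77 UMIs in 35 of 60 knockout cells (29.1 CPM, 23 to 36.4). The ratio of knockout to control was 1.28 (0.818 to 2.07), so no difference was detectable at this depth. Counts at the 3′ end need not read the deleted part of the gene. Of 34 autophagy genes with at least 100 UMIs over both libraries, 1 was at least 1.5-fold higher and 0 were as much lower. Over all 6466 genes with as many UMIs, 6.26% were higher and 3.76% lower, so this count is not read as a result about autophagy genes. The 1 was Gabarap, which attaches to autophagosome membranes (177 to 286 CPM, ratio 1.62, 1.39 to 1.9).

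Of these 6466 genes, 405 (6.26%) were at least 1.5-fold higher in the knockout library and 243 (3.76%) at least 1.5-fold lower, with a median log2 ratio of 0.03. These shares are the background against which each gene list is read below.

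By the share of measured genes past the fold, interferon genes were the group most set apart from that background. In the type I interferon list, 11 of 12 genes with at least 100 UMIs were at least 1.5-fold higher in knockout ganglion cells, 0 were lower, and the median log2 ratio was 1.77. In the interferon gamma and antigen presentation list, 15 of 16 were higher, 0 were lower, and the median was 1.60. A gene that is high only in the knockout library can pass the 100 UMI minimum through that library alone, so the lists were also counted without it. Of 33 type I genes with any UMI in ganglion cells, 29 were at least 1.5-fold higher and 1 lower. Of 35 genes detected in the other list, 34 were higher and 0 lower. A gene with 0 control UMIs counted as higher here, whatever its knockout count. Of all 34 and 38 list members, 4 and 10 had 0 control UMIs, and 1 and 3 had none in either library. Over all 18455 genes with any UMI, 4640 were at least 1.5-fold higher and 3393 lower. Among members with at least 34 UMIs in the control library alone, 6 of 7 and 7 of 8 were higher and 0 lower. For this last minimum the share over all genes was not counted. The chemokine and cytokine list had a larger median log2 ratio, 3.16, with 4 of 6 genes of at least 100 UMIs higher and 0 lower. Those 4 were Ccl2, Cxcl1, Cxcl2 and Spp1, and most knockout UMIs of each lay in 1 cell, as given below.

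**Figure D1:**
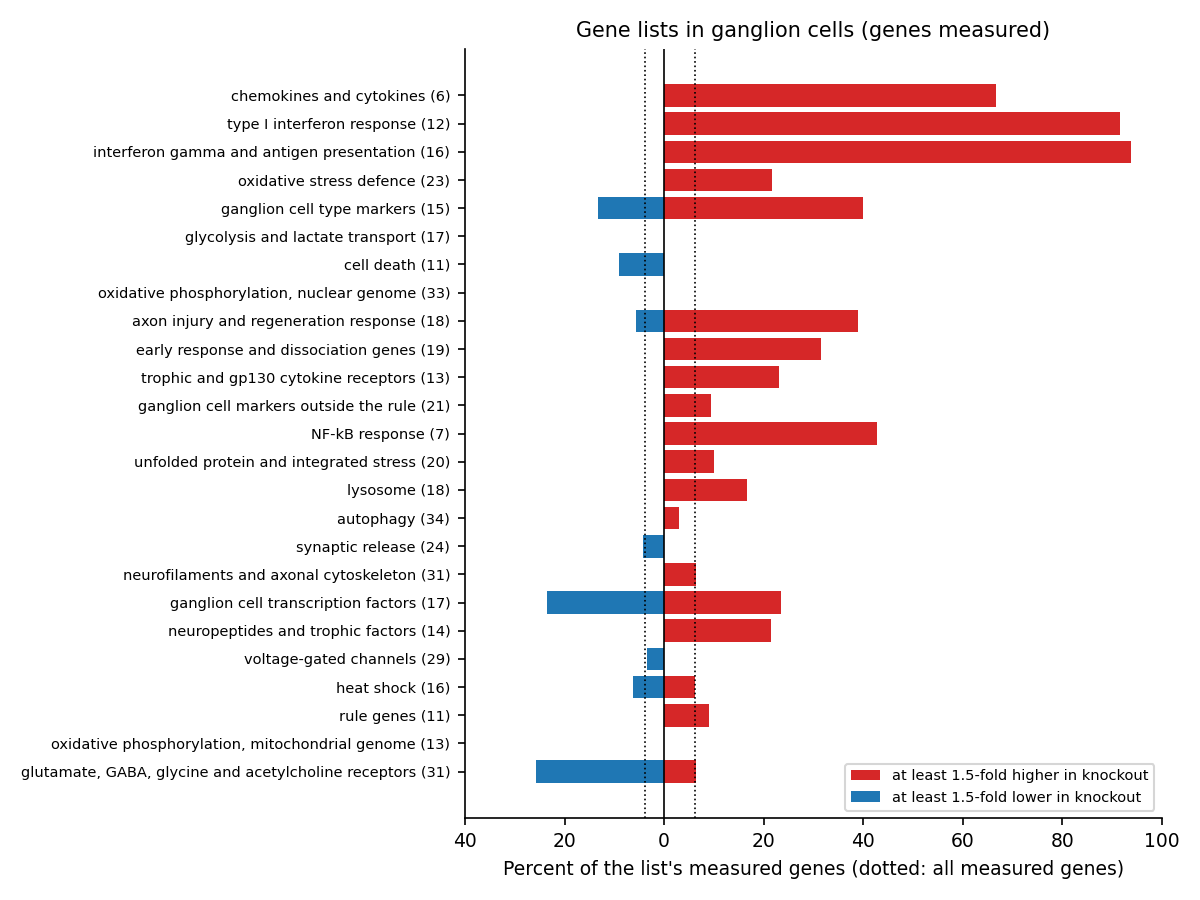
Each bar gives the percent of a gene list's measured genes (number in brackets, at least 100 UMIs in ganglion cells) that were at least 1.5-fold higher (red, right) or lower (blue, left) in the knockout library. Dotted lines mark the same shares over all 6466 measured genes, 6.26% and 3.76%. Lists are ordered by their median log2 ratio, so the chemokine and cytokine list (4 of 6 higher, each mostly from 1 cell) comes before both interferon lists. Both interferon lists stand far above the line. The receptor list, with 8 of 31 genes lower, has the longest bar to the left among the lists plotted.

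Ifit3 belongs to a family of interferon-induced proteins that bind viral RNA. It had 43 UMIs in 15 of 32 control ganglion cells and 596 UMIs in 51 of 60 knockout cells. Per cell it ran from 0 to 296 CPM in control (median 0) and from 0 to 1057 in knockout cells (median 148). The cells overlapped at the low end, and the highest control cell was above the median knockout cell. The pooled levels were 36.1 CPM (26.2 to 48.7) and 225.3 CPM (208 to 244), a ratio of 6.23 (4.57 to 8.7).

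Ifit1, of the same family, was found in 9 of 32 control and 48 of 60 knockout cells. Its level per cell reached 307 CPM in control and 820.3 CPM in knockout cells, with medians of 0 and 95.2. The pooled ratio was 5.15 (3.83 to 7.07). Ifit2 had a ratio of 5.88 (3.88 to 9.32), and 1 cell gave 165 of its 314 UMIs in knockout cells. Oasl2, a member of the oligoadenylate synthetase family, went from 9 of 32 to 42 of 60 cells with a ratio of 5.73 (3.97 to 8.55).

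Among the signal transducers, Stat2 had 35.3 CPM in control and 67.3 in knockout cells, a ratio of 1.91 (1.35 to 2.73). Irf9, its partner on promoters, had a ratio of 1.7 (1.2 to 2.46). With cells thinned to 5000 UMIs, Stat2 had a UMI in 18.8% of control and 25% of knockout ganglion cells. Irf9 had one in 21.9% and 21.7%. In rods, not thinned, the shares were higher, 26.6% and 36.5% for Stat2 and 23.1% and 37.6% for Irf9. The share of cells is therefore not read as expression of either gene in ganglion cells. Bst2, tetherin, which holds budding viruses at the cell surface, had a ratio of 3.93 (2.99 to 5.25). Lgals3bp, a secreted glycoprotein, was the 1 measured type I gene within the fold, at 1.45 (0.992 to 2.15).

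B2m encodes the light chain shared by all class I antigen presenting molecules. It was detected in 14 of 32 control and 54 of 60 knockout ganglion cells. Per cell it ran from 0 to 338 CPM (median 0) in control and from 0 to 1177 CPM (median 144) in knockout cells. The pooled levels were 49.6 (37.8 to 64.0) and 181 CPM (165 to 198), a ratio of 3.65 (2.78 to 4.87). At 5000 UMIs per cell, B2m had a UMI in 12.5% of control and 51.7% of knockout ganglion cells, and Ifit3 in 25% and 50%. In rods, whose median depth was 1376 UMIs in control and 3162.5 in knockout cells, the unthinned shares were 19.4% and 25.5% for B2m and 11.8% and 16.7% for Ifit3. The control share of B2m was thus no higher than that of rods. H2-D1, a class I heavy chain, was present in 25 of 32 and 60 of 60 cells, with medians of 64.1 and 220.3 CPM per cell and a pooled ratio of 2.17 (1.79 to 2.63). Reads of class I heavy chains can be shared between near-identical genes, so the split among them is uncertain.

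Genes of the immunoproteasome, which cuts proteins into peptides for class I molecules, followed. Psmb8 had a ratio of 4.86 (3.07 to 8.11), Psmb10 3.07 (2.3 to 4.17) and the activator subunit Psme1 1.76 (1.43 to 2.17). Gbp6, a guanylate-binding GTPase, was found in 8 of 32 and 42 of 60 cells and had a ratio of 5.82 (3.5 to 10.4). Cd274, which encodes PD-L1, had 9 and 95 UMIs and a ratio of 4.75 (2.4 to 10.7). Wars, a tRNA synthetase, was the 1 measured gene of this list within the fold, at 0.937 (0.717 to 1.23).

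Other neurons of the same libraries differed less when all their cells were pooled. Summed over all members of the type I list, ganglion cells had 519 CPM in control and 1670 CPM in knockout cells, a ratio of 3.22 (2.96 to 3.51). The ratio was 1.33 (1.28 to 1.37) in GABAergic amacrine cells and 1.11 (1.08 to 1.14) in bipolar cells. For the interferon gamma and antigen presentation list the ratios were 2.64 (2.45 to 2.85) in ganglion, 1.14 (1.11 to 1.18) in GABAergic amacrine and 0.929 (0.903 to 0.955) in bipolar cells. B2m, at 3.65 in ganglion cells, had ratios of 1.01 and 0.885 in the other 2 classes. The intervals of ganglion cells did not meet those of the other classes for either list. The classes differed, though, in the sex-linked transcripts of their cells: 12.5% of control ganglion cells, 17.7% of control GABAergic amacrine and 29.4% of control bipolar cells had Xist without Y-linked UMIs, against 23.3%, 20.6% and 18.8% in the knockout library. In cells with Y-linked UMIs and no Xist the ratio over both lists was 3.67 in ganglion and 3.67 in GABAergic amacrine cells, and 1.52 (1.48 to 1.57) in bipolar cells. No difference particular to ganglion cells is read from the pooled ratios.

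**Figure D2:**
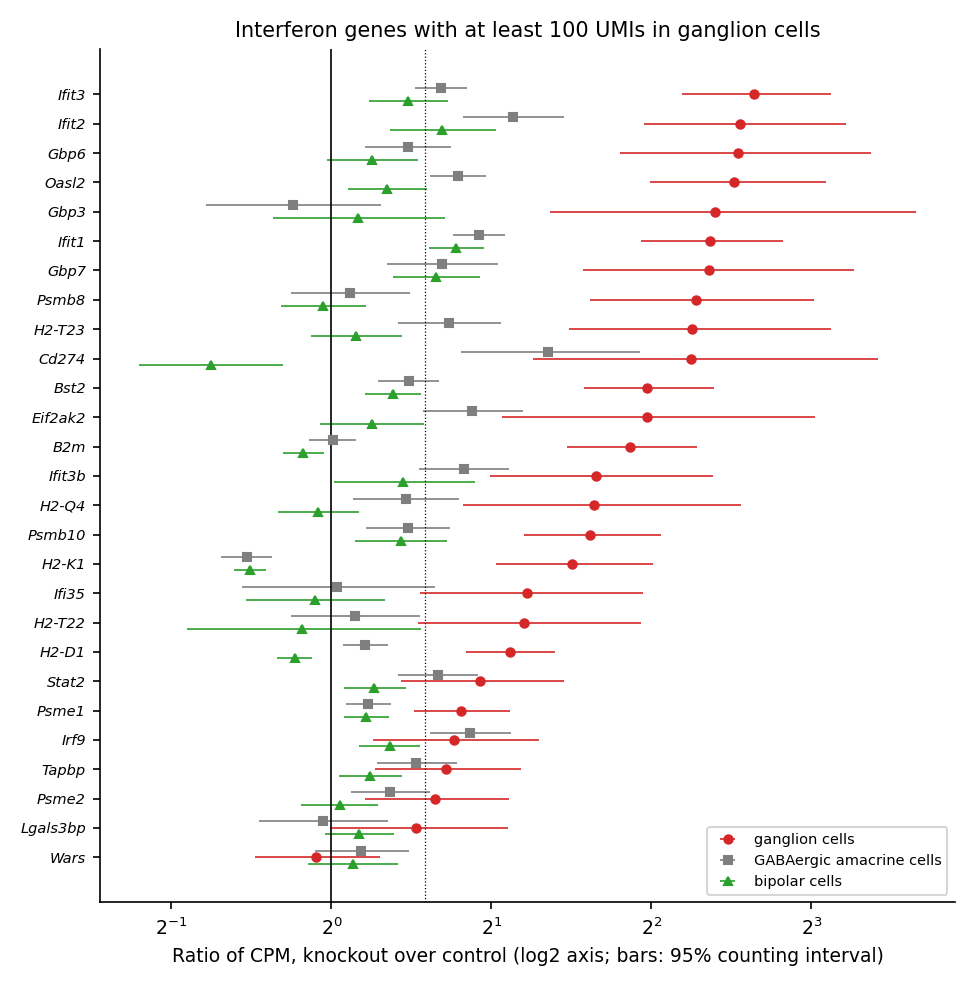
Ratio of CPM, knockout over control, on a log2 axis for genes of both interferon lists with at least 100 UMIs in ganglion cells, with 95% counting intervals, in ganglion (red circles), GABAergic amacrine (grey squares) and bipolar cells (green triangles). The solid line marks equal levels and the dotted line a ratio of 1.5; in ganglion cells Ifit3 had the largest ratio, 6.23, and Wars the smallest, 0.937.

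Both libraries pooled animals of both sexes, since each held cells with Xist and cells with Y-linked transcripts, and the interferon level of control cells went with these transcripts. Xist is the RNA of the inactive X chromosome of females, and Ddx3y, Eif2s3y, Kdm5d and Uty are genes of the Y chromosome. In the control library 25 ganglion cells had Y-linked UMIs without Xist, 4 had Xist without Y-linked UMIs, 2 had both and 1 had neither. In the knockout library these numbers were 40, 14, 6 and 0. Xist itself was 2.95-fold (2.27 to 3.89) higher in the knockout library and Ddx3y 0.602 times (0.441 to 0.824) the control.

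In cells with Y-linked UMIs and no Xist, the summed interferon level of both lists had a median of 601 CPM per control cell (262 to 1952) and 2347 CPM per knockout cell (374 to 8039). The pooled ratio there was 3.67 (3.42 to 3.95). In cells with Xist and no Y-linked UMIs it had a median of 4032 CPM per control cell (2512 to 6280) and 2328 CPM per knockout cell (968 to 6438), and the ratio was 0.735 (0.646 to 0.839). All 4 control cells of the second kind lay above all 25 of the first. Sum and median differed in sign in the cells with Xist: the summed ratios were 0.970 for the type I list and 0.597 for the other list, while the median log2 ratios were 0.34 and 0.22 over the 5 and 4 of their genes that reached 100 UMIs there. The higher summed interferon level of the knockout library was therefore seen in cells with Y-linked UMIs and not in those with Xist. Which animals gave which cells is not known, so genotype, sex and single animals cannot be told apart in it.

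**Figure D3:**
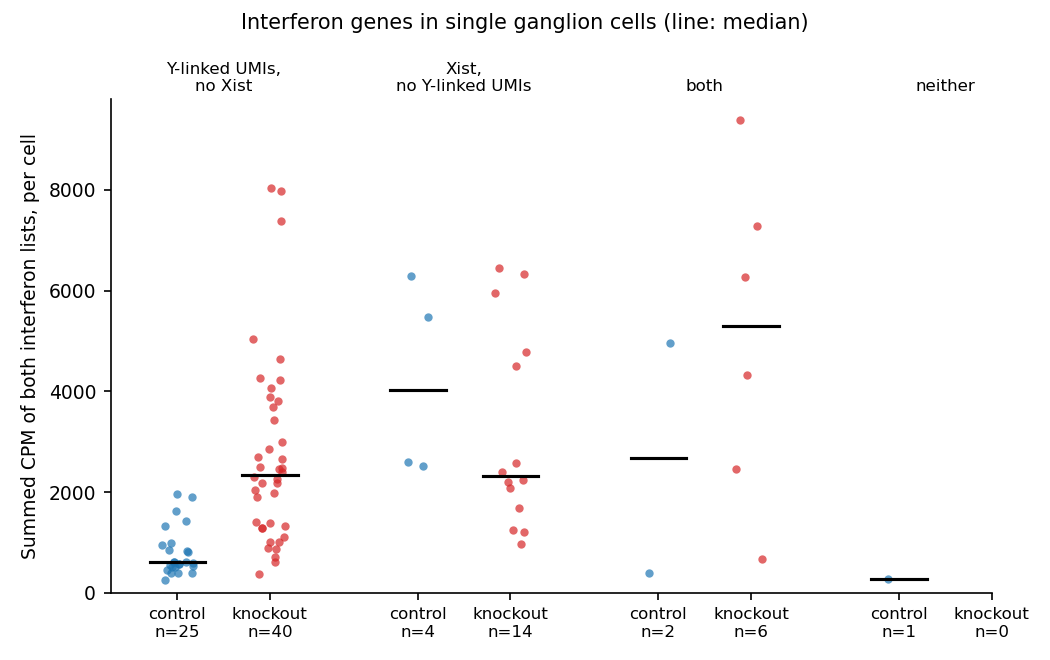
Each point is 1 ganglion cell, and its height is the summed CPM of all genes of both interferon lists, by library (blue control, red knockout) and by sex-linked transcripts; the line is the median. Control cells with Y-linked UMIs lie at 262 to 1952 CPM, while the 4 control cells with Xist lie at 2512 to 6280 CPM, in the range of the knockout cells.

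The ratios of B2m, Ifit3 and H2-D1 were also larger in cells with Y-linked UMIs. B2m had a ratio of 5.03 (3.54 to 7.36) in cells with Y-linked UMIs, and in cells with Xist it stood at 199 CPM in control and 184 in knockout cells, a ratio of 0.925 (0.499 to 1.9). For Ifit3 the ratios were 7.9 (5.3 to 12.3) and 1.35 (0.667 to 3.2), and for H2-D1 2.45 (1.95 to 3.1) and 0.607 (0.395 to 0.972). Stat3, a transducer of other cytokines, had similar ratios in both kinds of cell, of 1.95 (1.55 to 2.48) and 1.83 (0.820 to 5.09).

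The 4 control cells with Xist were shallow, from 6370 to 20631 UMIs, and had 12.6 to 20.3% mitochondrial UMIs. The 14 knockout cells with Xist had a median of 47076.5 UMIs and at most 9.98% mitochondrial UMIs. The 4 control cells also had less of several ganglion markers: 271 CPM of Rbpms against 704 in control cells with Y-linked UMIs, 1211 against 2421 CPM of Nefl, and 651 against 1507 CPM of Sncg. Control cells with Y-linked UMIs reached down to 5924 UMIs and up to 18.5% mitochondrial UMIs. The part of depth, mitochondrial content and marker loss in the interferon level of the 4 cells was not tested. In GABAergic amacrine cells the interferon level also went with the sex-linked transcripts. Their control cells with Xist (43 cells, median 15853 UMIs, 2.02% mitochondrial) had a median of 2730 CPM of interferon genes, and those with Y-linked UMIs (166 cells, 16493 UMIs, 2.03%) a median of 583 CPM. In the knockout library the medians were 1956 CPM (81 cells) and 1661 CPM (278 cells). The pooled ratios of knockout to control were 0.583 (0.558 to 0.608) and 3.67 (3.51 to 3.85). Bipolar cells had control medians of 1924 CPM with Xist (125 cells) and 750 CPM with Y-linked UMIs (245 cells), and knockout medians of 1535 and 1350 CPM.

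Of 7 measured genes of the NF-kB response list, 3 were at least 1.5-fold higher (Cebpd, Ier3 and Cebpb) and 0 lower. The 2 knockout cells with Slc1a3 described below held 119 of the 196 Cebpd UMIs and 162 of the 487 Ier3 UMIs of that library. Without both cells the ratio of Cebpd was 2.97 (1.61 to 6.00) instead of 7.34, and that of Ier3 1.54 (1.22 to 1.94) instead of 2.23. Stat3, of other lists, transduces cytokines of the interleukin-6 family. It went from 89.1 to 192 CPM (ratio 2.15, 1.74 to 2.68), with medians per cell of 64.1 and 154 CPM. In GABAergic amacrine cells its ratio was 3.69 (3.13 to 4.38) in cells with Y-linked UMIs and 0.705 (0.587 to 0.848) in those with Xist, as with the interferon genes. Socs3, its feedback inhibitor, was found in 6 of 32 and 35 of 60 cells, at 5.04 and 29.1 CPM (ratio 5.77, 2.53 to 16.2). At 5000 UMIs per cell these shares were 3.12% and 8.33%, below those in rods, 13.6% and 25.8% unthinned, so they are not read as expression in ganglion cells. Stat3 had thinned shares of 43.8% and 66.7%, also no higher than the 57.3% and 67.4% of rods. Lcn2, lipocalin-2, a secreted iron carrier of inflamed tissue, had 84.9 and 85.8 CPM (ratio 1.01, 0.796 to 1.29). Its level in other cells was far higher, with ganglion cells at 0.00583 and 0.00744 times the other deep cells. Its thinned shares were 31.2% and 31.7% of ganglion cells, against 64.8% and 71.1% of rods unthinned, and it is not read as expression here either. The rod class was itself mixed, so its shares, here and for the other genes, are no clean floor. It held 7393 CPM of Müller glia markers in control and 9317 in knockout cells, against 251 and 445 in ganglion cells. Neutrophil markers had 5054 and 3316 CPM in it, and 3.82% and 12.2% of its cells held at least 3 UMIs of Slc1a3. Free RNA was not measured, and which of these genes rods express was not tested.

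Several inflammatory genes rested on 1 or 2 knockout cells. These 2 cells held at least 3 UMIs of Slc1a3, the glutamate transporter GLAST of Müller glia, and 0 control ganglion cells did. The one with more, 35 UMIs of Slc1a3 in 39039 UMIs, carried 181 of the 196 knockout UMIs of the chemokine Ccl2, 110 of 121 of Cxcl1 and 176 of 197 of Cxcl2. Without that cell Ccl2 had a ratio of 2.28 (0.645 to 12.3), Cxcl1 1.26 (0.372 to 5.4) and Cxcl2 0.737 (0.352 to 1.6). It also held 190 of the 255 UMIs of Cp, the copper carrier ceruloplasmin, whose ratio was 3.71 (1.77 to 8.95) without it and 1.45 (0.633 to 3.71) without both cells. The metallothioneins Mt1 and Mt2, which bind zinc and copper, had ratios of 2.58 (2.18 to 3.06) and 4.46 (3 to 6.9) without that cell. Without both cells these were 1.38 (1.16 to 1.66) and 1.89 (1.23 to 2.99). B2m and Ifit3 did not rest on them, with ratios of 3.59 (2.74 to 4.8) and 6.31 (4.63 to 8.81) without both.

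Injury genes differed in part. Of 18 measured genes of the axon injury and regeneration list, 7 were at least 1.5-fold higher and 1 lower, with a median log2 ratio of 0.20. Atf3, a transcription factor that neurons switch on after axon damage, went from 13 of 32 to 34 of 60 cells, with 27.7 CPM (19.1 to 39.0) in control and 107 CPM (94.5 to 120) in knockout cells. Its ratio was 3.84 (2.67 to 5.69), and 3.02 (2.08 to 4.49) without the 2 cells with Slc1a3. Per cell Atf3 had medians of 0 and 18 CPM and maxima of 424 and 1537, so the groups overlapped widely. At 5000 UMIs per cell 12.5% and 23.3% of ganglion cells had an Atf3 UMI, below the 14.9% and 30.7% of rods unthinned, so the share of cells is not read as expression in ganglion cells.

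Other members were closer to equal. Sox11, a growth-state transcription factor, had a ratio of 1.53 (1.22 to 1.94), and Rgs4, a regulator of G protein signalling, 1.71 (1.48 to 1.99). Ddit3, a factor of endoplasmic reticulum stress, had a ratio of 1.6 (1.17 to 2.22). At 5000 UMIs per cell Ddit3 had a UMI in 12.5% of control and 28.3% of knockout ganglion cells. The shares of unthinned rods were higher, 17.6% and 35.9%, so its share of cells is not read as expression in ganglion cells. Jun, a core factor of the injury response, was high in both libraries, at 446 and 510.3 CPM (ratio 1.14, 1.03 to 1.27). Gap43, a growth cone protein, had 425 and 387 CPM (0.912, 0.819 to 1.02). Hspb1, a small heat shock protein, had a ratio of 0.647 (0.468 to 0.9).

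Oxidative stress genes had 5 of 23 measured members at least 1.5-fold higher and 0 lower, with a median log2 ratio of 0.29. Besides both metallothioneins these were Txn1, thioredoxin (1.73, 1.5 to 2), Ftl1, the ferritin light chain (1.68, 1.49 to 1.91), and Prdx1, a peroxidase (1.63, 1.32 to 2.04). Early response genes, which dissociation also switches on, had 6 of 19 higher and 0 lower, led by Atf3 and Gadd45b (2.44, 1.67 to 3.69). Of 33 nuclear-coded genes of oxidative phosphorylation and 17 of glycolysis and lactate transport, 0 were past the fold in either direction. Of 11 measured cell death genes, 0 were higher and 1 lower.

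Neurotransmitter receptor genes tended to be lower. Of 31 measured genes of the glutamate, GABA, glycine and acetylcholine receptor list, 8 were at least 1.5-fold lower and 2 higher, with a median log2 ratio of -0.22. Over 13 alternatives of the processing that median lay between -0.34 and 0.07, with the same sign in 11. Grin2b, an NMDA receptor subunit, was detected in 31 of 32 and 59 of 60 cells. Per cell its median was 294 CPM in control and 198 CPM in knockout cells, and at least 1 cell of each library had 0. Its pooled levels were 334 and 204 CPM, a ratio of 0.613 (0.537 to 0.699).

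Lower members also included Grin2a, also an NMDA subunit (0.625, 0.548 to 0.714), Gria1 of the AMPA type (0.497, 0.397 to 0.622), Grik3 of the kainate type (0.378, 0.262 to 0.544) and the GABA-A subunit Gabrb2 (0.621, 0.508 to 0.76). Grik1, of the kainate type, was higher at 2.1 (1.7 to 2.61). In GABAergic amacrine cells the ratios of Grin2b and these 4 lower genes lay between 0.887 and 1.28. In ganglion cells with Y-linked UMIs Grin2b had a ratio of 0.59 (0.509 to 0.685), and in those with Xist 0.639 (0.390 to 1.11).

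Of 29 voltage-gated channel genes 1 was past the fold. Kcnd2, the A-type potassium channel Kv4.2, had 1766 CPM in control and 804 CPM in knockout cells (ratio 0.455, 0.428 to 0.484). Per cell it ran from 0 to 5665 CPM (median 973) and from 0 to 4223 CPM (median 576), so it was spread widely among cells of both libraries. Of 24 synaptic release genes 1 was lower, Cplx2, complexin 2 (0.602, 0.533 to 0.681). Among 31 genes of neurofilaments and axonal cytoskeleton, 2 were higher and 0 lower.

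The lower genes were long. The median genomic span was 118 kb for the 243 lower genes, 22 kb for the 405 higher ones and 35.7 kb for all measured genes (GENCODE M21, GRCm38). Genes under 10 kb had a median log2 ratio of 0.19 in ganglion cells, with 9 of 1289 lower and 128 higher. Genes of at least 200 kb had one of -0.16, with 84 of 728 lower and 52 higher. In GABAergic amacrine cells the same 2 bins had medians of 0.06 and -0.03, and in bipolar cells 0.07 and -0.03. The 8 lower receptor genes had a median span of 271 kb. Receptor genes of at least 200 kb had a median log2 ratio of -0.25 (16 genes), and those under it -0.19 (15 genes). Malat1, an RNA kept in the nucleus and chosen here after its values were seen, had medians per cell of 30425 CPM in control and 24658 CPM in knockout cells. Its pooled levels were closer, at 28476 and 26367 CPM, and its ranges per cell, 7964 to 95712 and 4275 to 88049 CPM, overlapped widely. The part of nuclear or unspliced RNA in the lower genes was not tested.

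**Figure D4:**
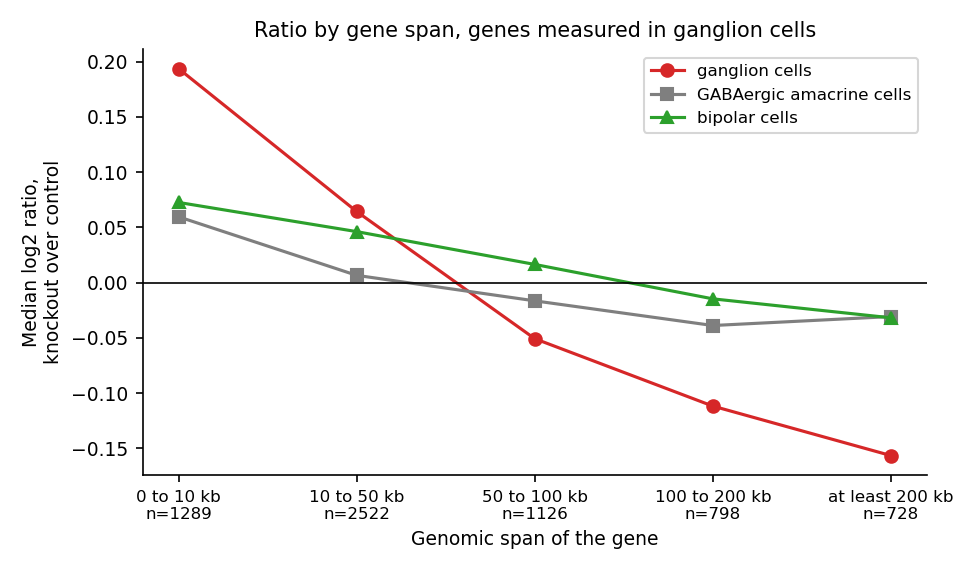
Median log2 ratio of knockout over control (vertical axis) for genes measured in ganglion cells, binned by genomic span (horizontal axis, with the number of genes), in ganglion, GABAergic amacrine and bipolar cells. The ganglion cell line runs from 0.19 for genes under 10 kb to -0.16 for genes of at least 200 kb, a wider range than in the other 2 classes.

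The smallest ratios among eligible genes were those of Cdh12, a cadherin (0.303, 0.244 to 0.377), Flrt2, a membrane protein (0.345, 0.272 to 0.438), and Pcdh17, a protocadherin (0.377, 0.298 to 0.475). Runx1t1, a transcriptional corepressor, was the most abundant of the 12 genes with the smallest ratios, in 32 of 32 control and 59 of 60 knockout cells. It had medians of 675 CPM (48.5 to 2143) and 249 CPM (0 to 1121), and pooled levels of 798 and 314 CPM, a ratio of 0.394 (0.359 to 0.433). In cells with Xist its ratio was 1.11 (0.678 to 1.94), against 0.369 (0.331 to 0.411) in cells with Y-linked UMIs.

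At the other end, Col25a1, a membrane collagen, had the largest ratio, 20.7 (10.4 to 48.4), with 150 of its 369 knockout UMIs in 1 cell. Il1rapl2, a synaptic adhesion receptor, had 283 of its 322 knockout UMIs in 1 cell. Nrgn, neurogranin, a calmodulin-binding protein of neurons, was spread over more cells, 14 of 32 and 42 of 60. It had medians of 0 and 139 CPM per cell and pooled levels of 86.6 and 302.4 CPM, a ratio of 3.49 (2.84 to 4.33). Its ratio was 3.95 (3.19 to 4.94) in cells with Y-linked UMIs and 0.807 in all GABAergic amacrine cells. Lgals9, a galectin, and Herc6, an interferon-induced ligase, had ratios of 8.84 (3.94 to 24.6) and 4.13 (2.5 to 7.26).

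The types of ganglion cells present were described by cells with at least 2 UMIs of a type marker. Pou4f1, a transcription factor of most ganglion cells, passed in 27 of 32 control and 55 of 60 knockout cells. Its relatives Pou4f2 and Pou4f3 passed in 11 and 9 control cells and in 27 and 19 knockout cells. Every control cell with either also had Pou4f1. In the knockout library 1 cell had Pou4f2 without Pou4f1, and 5 control and 4 knockout cells had none of the 3.

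Foxp2, a factor of the F-type ganglion cells, marked 6 of 32 control cells and 13 of 60 knockout cells. Cartpt, a neuropeptide of direction-selective ganglion cells, marked 19 of 32 (59.4%, 40.6 to 76.3) and 46 of 60 (76.7%, 64.0 to 86.6). It is not confined to ganglion cells: after thinning to 5000 UMIs per cell, 37.5% of control and 65.0% of knockout ganglion cells had a UMI, against 22.2% and 27.2% of GABAergic amacrine cells. The pooled Cartpt level went the other way, at least 2-fold lower in ganglion than in GABAergic amacrine cells of both libraries. Tbr1, a factor of another set of types, marked 2 of 32 and 6 of 60 cells.

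Few cells had markers of intrinsically photosensitive ganglion cells. Opn4, melanopsin, marked 0 of 32 control cells. This allows up to 10.9% of cells with 2 UMIs (upper bound of the exact interval) and sets no limit on cells that express it below that. It marked 3 of 60 knockout cells (5.0%, 1.04 to 13.9). Eomes, their transcription factor, marked 1 and 6 cells. Lypd1, a protein anchored to the cell membrane, marked 0 of 32 and 12 of 60 cells (20%, 10.8 to 32.3), and Col25a1 3 and 18. The intervals of the 2 libraries overlapped for each of the 16 plotted markers. Over all 80 genes counted in this way they did not overlap for 1, Sox11. The 80 include the 12 rule genes, whose shares the choice of cells set in part. It marked 10 of 32 control cells (31.2%, 16.1 to 50) and 43 of 60 knockout cells (71.7%, 58.6 to 82.5). With cells thinned to 5000 UMIs, a Sox11 UMI was found in 31.2% of control and 33.3% of knockout ganglion cells. Another such draw gave 28.1% (13.7 to 46.7) and 38.3% (26.1 to 51.8), with overlapping intervals. The separation of Sox11 is therefore not read as a shift in types. With 32 and 60 cells these counts limit what shift in types could be seen, and a shift of types would also move the pooled levels above.

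**Figure D5:**
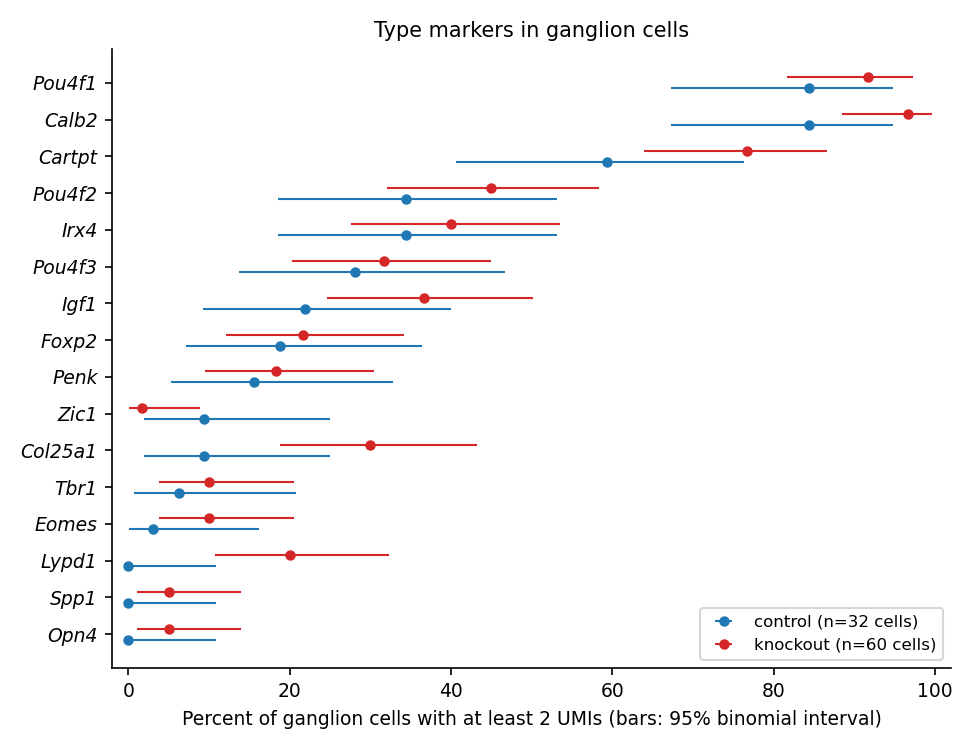
Percent of ganglion cells with at least 2 UMIs of each type marker (horizontal axis) in the control (blue, 32 cells) and knockout library (red, 60 cells), with exact 95% binomial intervals. Pou4f1 and Calb2 mark most cells of both libraries, Opn4, Spp1 and Lypd1 mark 0 control cells, and all pairs of intervals overlap. Pou4f1, Pou4f2 and Pou4f3 are genes of the rule that chose the cells.

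One knockout cell, singled out after its values were seen, decided several type genes. With 161637 UMIs it was the deepest ganglion cell of either library. It held 131 of the 145 knockout UMIs of Spp1, osteopontin, a marker of large alpha ganglion cells. It also held 152 UMIs of Prph, the neurofilament partner peripherin, 25 of the 37 Opn4 UMIs, 19 UMIs of Eomes, 13 of Kcng4 and 99 of Nefh. Spp1 had 0 control UMIs, so its level was at least 21.7-fold higher against the limit of 3 counts that 0 allows, and most of those UMIs came from that cell.

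Markers of other cells were present at low levels. Those of GABAergic amacrine cells summed to 95 CPM in control and 183 CPM in knockout ganglion cells, against 4301 and 4247 CPM in the amacrine cells themselves. At least 3 UMIs of Gad1 and Gad2 together were found in 0 of 32 and 6 of 60 ganglion cells, at least 1 UMI in 2 of 32 and 23 of 60, and at least 3 bipolar genes in 3 of 32 and 3 of 60. Rod markers summed to 506 and 189 CPM, Müller glia markers to 250.5 and 445 CPM, and markers of microglia, monocytes and macrophages to 21.9 and 12.5 CPM. Without the 3 control and 10 knockout cells with at least 3 UMIs of Gad1 and Gad2, at least 3 bipolar genes or at least 3 UMIs of Slc1a3, the summed ratios were 2.97 for the type I interferon list and 2.4 for the interferon gamma and antigen presentation list.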

How the data were processed

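Single-cell RNA counts of 2 libraries were used. The authors deposited raw UMI counts per gene and barcode, with gene names, made with Cell Ranger 6.0.0 and mapped to mm10, per the submitters' processing notes; papain dissociation and 10x Genomics 3′ chemistry are per the labels' protocols. No source used here gives the annotation release. The deposited barcode and feature lists (unit other) name cells and 32285 genes, of which 40 repeat a symbol and list genes were read from the first of each. The members and the 41 gene lists were chosen with earlier results of these data known.

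UMIs of ganglion cells were summed per library and given as CPM with exact Poisson 95% intervals. Ratios are knockout over control with exact conditional binomial intervals, and shares have Clopper-Pearson intervals, all covering counting error only. Log2 ratios had 0.5 added to both counts. Past the fold means a ratio of at least 1.5 or its inverse, over genes with at least 100 UMIs in both libraries together. A gene with 0 control UMIs was counted as higher. The ratio code was checked on simulated counts. GABAergic amacrine, bipolar and rod cells were chosen by transcript rules. A glycinergic amacrine class was left out of the comparisons, since 29.2% of its control cells held at least 3 UMIs of Slc1a3. No doublet caller was run; cells with markers of other cells were left out as an alternative instead.

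Named genes were all rule genes, the 12 largest and 12 smallest ratios among eligible genes, the extremes and the 2 most abundant genes of each list, the 15 genes highest over other cells, and fixed genes of interest; genes were then selected from these for the text, and members given for a contrast were added after their values were seen. Alternative scalings used TMM (edgeR 4.0.16) and DESeq2 1.42.0 size factors. The other tools were R 4.3.3, pandas 2.3.3, scipy 1.17.1, numpy 2.4.6 and Python 3.11.15. Some genes that the lists hold are counted in them but not reported here by name.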

Additional observations from a re-analysis of the deposited data

How the results depend on the processing

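No paired analysis was possible because each group was 1 library. TMM and DESeq2 size factors moved all ratios by under 0.1 on the log2 scale. The 405 higher and 243 lower genes became 813 and 498 with the mean of per-cell CPM, 953 and 658 of the 4640 genes that kept at least 20 UMIs with cells thinned to 5000 UMIs, 776 and 455 with a minimum of 50 UMIs, 4640 and 3393 with no minimum, and 132 and 42 at a fold of 2. Leaving out the top 3 cells of each gene gave 1212 and 88; this removes a larger part of 32 than of 60 cells, so it favours the knockout library by construction. In cells with Xist and no Y-linked UMIs, an alternative chosen after seeing the data, 678 of 1537 genes were higher and 166 lower; in cells with Y-linked UMIs and no Xist 303 of 5190 were higher and 254 lower. Ganglion cell shares were 1.69% and 2.31% over cells of at least 5000 UMIs.

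Among named genes past the fold, the ratio crossed 1 for 6: Foxp2 with the mean of per-cell CPM (1.01), Hspb1 without the top 3 cells (1.31) and, in the cells with Xist, Runx1t1 (1.11), B2m (0.925), H2-D1 (0.607) and Xist (0.713); the cause was not tested. Of all 163 named genes, within the fold or past it, 59 crossed 1 in at least 1 alternative, 28 of the 83 measured doing so in the cells with Xist, among them Rbpms (0.765 to 2.25), Nrn1 (0.936 to 2.23) and Map1b (0.889 to 2.58). The median log2 ratio of the type I interferon list lay between 0.34 and 2.33 over 13 alternatives and that of the interferon gamma and antigen presentation list between 0.22 and 2.13, the lowest in the cells with Xist.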
